A study of Mus musculus with 24 samples.

Results

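Astrocytes and microglia were compared through 4 of the 24 libraries of the series, all made from mouse brain by cTag-PAPERCLIP. In this method a poly(A)-binding protein carrying GFP (the Ctag-PABP allele) is made only in cells that have expressed a Cre recombinase, and the mRNA bound to it is recovered with antibodies to GFP and sequenced near its 3′ end. The astrocyte group was 2 libraries from the cortex of Gfap-Cre; Ctag-PABP mice, and the microglia group was 2 libraries from the brain of untreated Cx3cr1-Cre; Ctag-PABP mice. Both groups carried the Ctag-PABP allele and differed in the Cre driver. Libraries from the cortex of Camk2a-Cre (2) and Gad2-Cre (2) mice with the same allele, in which the tag marks excitatory and inhibitory neurons, served only to mark genes higher in both glia than in neurons. Libraries of the Cx3cr1-Cre line after PBS injection (3 libraries) were set beside the untreated ones as further microglial values. Members were chosen by the sample titles, and all 23871 genes of the count tables were taken.

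Several features of the design limit the comparison. Astrocytes were tagged in cortex and microglia in whole brain, and the names of the deposited tables carry a different prefix for the 2 groups, whose meaning the labels do not give, so cell type, region and any batch cannot be told apart. The labels give no age, sex or strain for these mice and do not say that replicates came from separate animals, so the spread behind each p-value is that of libraries and may be technical. Each Cre marks the cells in which its driver gene is or was active, and Cx3cr1 is also active in macrophages at the borders of the brain. In such bulk libraries, fewer cells of a type and less RNA per cell cannot be told apart.

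Astrocytes are the glia that take up neurotransmitter and potassium at synapses, supply neurons with metabolites and cholesterol, and shape the extracellular matrix. Microglia are the resident macrophages of the brain: they depend on signalling through the receptor Csf1r, survey the tissue with purinergic receptors, and engulf and digest debris. The 2 cell types also signal to each other, with ligands made by one and receptors carried by the other.

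The Gfap-Cre libraries held 800886 and 1749778 counts and the Cx3cr1-Cre libraries 154959 and 133456. Levels are given below as CPM (a gene's count per 1000000 counts of the library), replicate 1 first, and are compared only within a gene. A total of 3 counts, used as the floor for a single library, stood at 3.75 and 1.71 CPM in the Gfap-Cre libraries and at 19.4 and 22.5 CPM in the Cx3cr1-Cre libraries, so low genes were measured less well in microglia. The log2 CPM of replicates correlated at 0.949 across genes for Gfap-Cre and at 0.674 for Cx3cr1-Cre; genes are not independent replicates. A count of 0 in these tables is no proof of absence: Gapdh, which every cell uses, had 1 count over the Gfap-Cre pair and 1 over the Cx3cr1-Cre pair.

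The libraries matched their labels in the main marker lists. Summed counts of 20 astrocyte markers made up 4.95% and 4.20% of the Gfap-Cre libraries and 0.0394% and 0.0532% of the Cx3cr1-Cre libraries. Summed counts of 22 microglial markers made up 7.26% and 6.49% of the Cx3cr1-Cre libraries and 0.0897% and 0.104% of the Gfap-Cre libraries, there mostly from Sparc and Sall1. Markers of other cells were lower and uneven. Oligodendrocyte markers made up 0.126% and 0.965% of the Gfap-Cre pair against 0.0529% and 0.0435% of the Cx3cr1-Cre pair, and all 10 of them had counts in both Gfap-Cre libraries. Pan-neuronal markers made up 0.245% and 0.155% against 0.0710% and 0.0742%. Their share was 1.68% and 1.60% in the Camk2a-Cre libraries and 1.97% and 1.86% in the Gad2-Cre libraries. Border macrophage and blood cell markers made up 0.0987% and 0.258% of the Cx3cr1-Cre libraries against 0.000375% and 0.000514%, and the erythroid gene Alas2 was listed at 0 in all 4. Oligodendrocyte precursor, endothelial and ependymal lists stayed at or below 0.0489% in every glial library. The 14 endothelial and pericyte markers made up 0.0144% and 0.0223% of the Gfap-Cre pair, with counts in 5 and 10 of them. Their share of the Cx3cr1-Cre pair was 0% and 0.000749%. The endothelial genes Pecam1 and Ly6c1 were listed at 0.

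**Figure D1:**
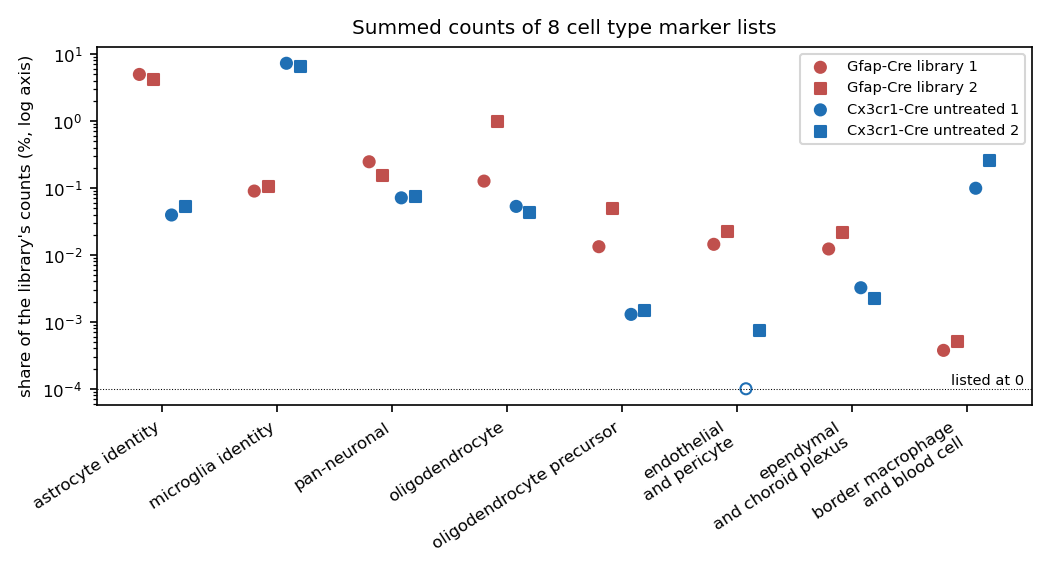
Summed counts of 8 marker lists as a percentage of each library's counts (log axis), with circles for replicate 1 and squares for replicate 2 of Gfap-Cre (red) and untreated Cx3cr1-Cre (blue); the open symbol is a list at 0. Astrocyte markers reach 4.95% and 4.20% in Gfap-Cre, microglial markers 7.26% and 6.49% in Cx3cr1-Cre, and Gfap-Cre replicate 2 stands apart in oligodendrocyte markers at 0.965%.

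A test was possible for 6473 genes, and 3238 of them (50.0%) differed between the 2 glia at an adjusted p under 0.05 (edgeR's quasi-likelihood test with Benjamini-Hochberg adjustment, the source of every adjusted p below). Of the tested genes, 1780 (27.5%) were higher in Gfap-Cre and 1458 (22.5%) were higher in Cx3cr1-Cre. The median log2 difference over all tested genes, Gfap-Cre minus Cx3cr1-Cre, was 0.27. Without Gfap-Cre replicate 1 the count was 1528 of 4352 tested genes, and without Gfap-Cre replicate 2 it was 1458 of 4236. In each fit without a library, here and below, the lone library of its group is assumed to vary like the other group's pair, so a call gained there does not count the disagreement that was removed. Of the called genes, 40 had the same counts as another gene in every library and are not separate measurements. Among the called genes, 425 had no count in either Cx3cr1-Cre library and 149 had none in either Gfap-Cre library. For such genes the fold is a lower bound, taken against 3 counts over the pair of libraries. For genes with 1 to 3 counts in a pair, the ratio of summed CPM is given with its 95% counting interval, which covers counting error only.

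**Figure D2:**
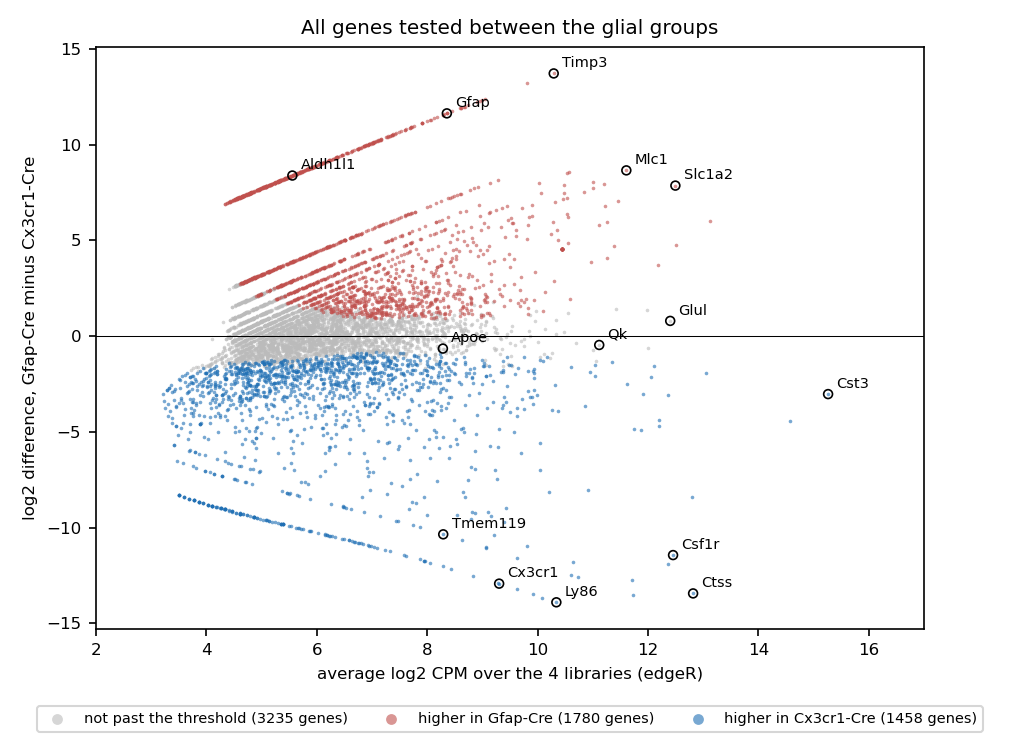
Log2 difference between Gfap-Cre and Cx3cr1-Cre (vertical axis) against the average log2 CPM of 6473 tested genes, each point a gene, red where higher in Gfap-Cre (1780), blue where higher in Cx3cr1-Cre (1458) and grey where not past the threshold. Points on the sloping lines at the top and bottom have 0 or few counts in one group, and their plotted difference depends on the fit's prior count; Cst3, Glul, Qk and Apoe were present in both glia.

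The genes of the 2 Cre drivers separated the groups fully. Gfap, an intermediate filament protein of astrocytes, stood at 517 and 597 CPM in the Gfap-Cre libraries and at 0 in both Cx3cr1-Cre libraries, at least 54.99-fold higher (adjusted p = 0.000158). Cx3cr1, the fractalkine receptor of microglia, stood at 819.6 and 1783 CPM in the Cx3cr1-Cre libraries and at 0 in both Gfap-Cre libraries, at least 1076-fold higher (adjusted p = 9.61e-05). Aldh1l1, a folate enzyme and astrocyte marker, stood at 61.2 and 56.6 CPM against 0 and 0, at least 5.58-fold higher (adjusted p = 0.00469); it could not be tested without either Gfap-Cre library. Tmem119, a membrane protein of resident microglia, stood at 607 and 764 CPM in Cx3cr1-Cre against 0 and 0.572, a ratio of 1733 (95% counting interval 307 to 68809, adjusted p = 7.14e-05). In none of these genes did the groups overlap; over all tested genes the groups were apart with both Gfap-Cre libraries higher in 45.8% and with both Cx3cr1-Cre libraries higher in 31.2%.

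Several genes stood among the 10 with the largest fitted differences in each direction (average log2 CPM of at least 6, groups apart). The order of genes at 0 in a group depends on the fit's prior count, so no rank is read from it. Toward microglia, Ly86, a partner protein of a Toll-like receptor, reached 1446 and 3687 CPM in Cx3cr1-Cre and no count in Gfap-Cre, at least 2111-fold higher. Mpeg1, a pore-forming protein of macrophages, was at least 1789-fold higher at 1717 and 2555 CPM. Selplg, the ligand of selectins, was at least 1604-fold higher, and Itgam, the integrin chain CD11b, at least 1058-fold higher. Toward astrocytes, Timp3, an inhibitor of matrix metalloproteinases, stood at 2558 and 2147 CPM in Gfap-Cre with no count in Cx3cr1-Cre, at least 219-fold higher. Dio2, the deiodinase that activates thyroid hormone, was at least 163-fold higher at 1579.5 and 1752 CPM. Igfbp5, a binding protein of insulin-like growth factors, was at least 70.2-fold higher at 671 and 757 CPM. Tril, a co-receptor of Toll-like receptors, was at least 67.2-fold higher in Gfap-Cre at 633 and 729 CPM. The floor of 3 counts is a higher CPM in the shallow Cx3cr1-Cre libraries, which lowers every bound toward astrocytes.

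Immune genes were called mainly toward microglia. The calls below are given out of each whole list, and many listed genes had too few counts to test. Of 29 genes of immune receptor signalling, 22 were tested and 22 were higher in Cx3cr1-Cre. Of 22 complement genes, 10 were tested, 8 were higher in Cx3cr1-Cre and 1 in Gfap-Cre. Of 27 genes of innate sensing and NF-kB, 12 were tested and 10 were higher in Cx3cr1-Cre, and of 31 cytokine and chemokine genes, 18 were tested, 15 were higher in Cx3cr1-Cre and 2 in Gfap-Cre. Of 16 antigen presentation genes, 12 were tested and 12 were higher in Cx3cr1-Cre. These counts stand beside the 22.5% of all tested genes that were higher in Cx3cr1-Cre and the 27.5% higher in Gfap-Cre. A gene low in both glia could not enter them. A tested gene with no count in a group entered through the other group alone, which fixed its direction, here and in the lists below. No Gfap-Cre count was listed for 17 of the 29 signalling genes and 4 of the 16 antigen presentation genes. The same held for 11 of 22 complement, 11 of 27 sensing and 18 of 31 cytokine genes.

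**Figure D3:**
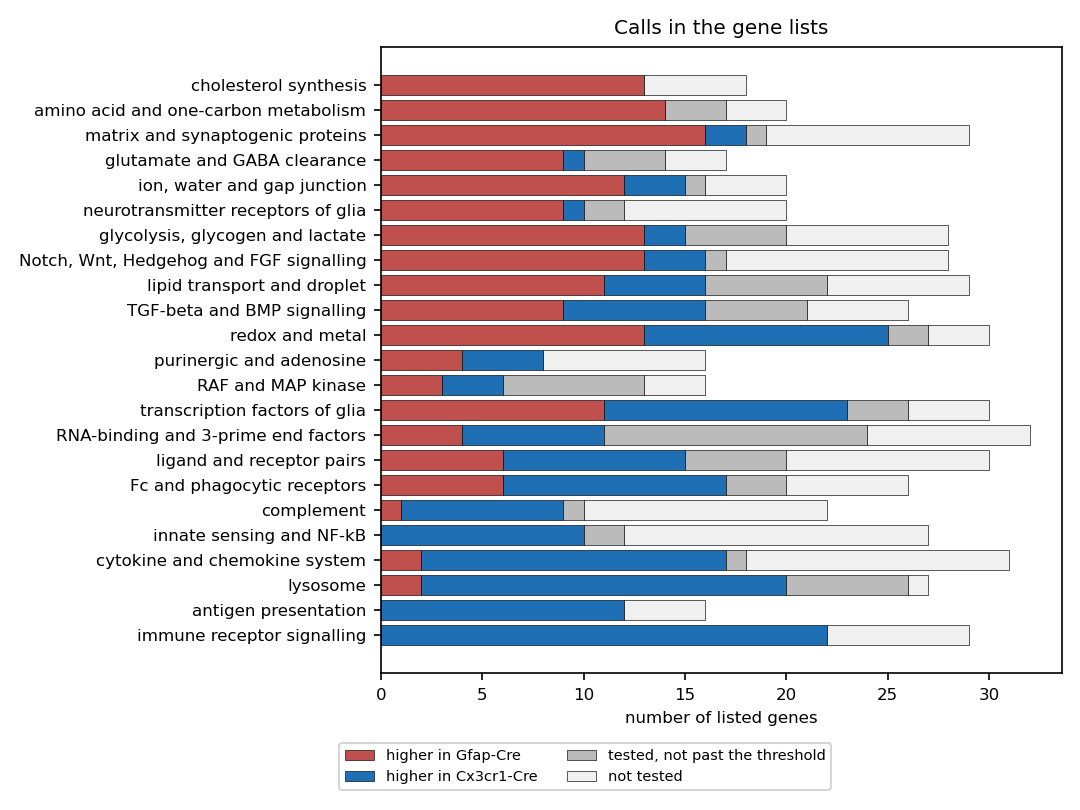
Number of listed genes (horizontal axis) higher in Gfap-Cre (red), higher in Cx3cr1-Cre (blue), tested without passing the threshold (dark grey) and not tested (light grey), for 23 gene lists. Cholesterol synthesis has 13 red and no blue genes, immune receptor signalling has 22 blue and no red genes, and 13 of the 24 tested RNA-binding genes did not pass.

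Complement differed by component. The 3 chains of C1q, which tags debris and synapses for removal, were high in Cx3cr1-Cre and near 0 in Gfap-Cre. C1qa stood at 774 and 704 CPM in Cx3cr1-Cre against 0 and 0 in Gfap-Cre, C1qb at 7576 and 4900.5 CPM against 2.50 and 0, and C1qc at 12158 and 7358 CPM against 6.24 and 0.572. The log2 difference of C1qc was -11.90 ± 0.98 (SE; adjusted p = 0.000107). The receptor chains Itgam and Itgb2, which together bind deposited complement, and the anaphylatoxin receptor C3ar1 had no count in Gfap-Cre and were at least 1058, 469 and 127-fold higher in Cx3cr1-Cre. Clu, a secreted chaperone that also restrains complement, went the other way, at 2161 and 1689.9 CPM in Gfap-Cre against 12.9 and 0, a ratio of 265 (95% counting interval 73.3 to 2189, adjusted p = 0.000139). C4b, a complement protein upstream of C3, was 21.2 and 32.6 CPM in Gfap-Cre and 32.3 and 67.4 in Cx3cr1-Cre and did not pass (adjusted p = 0.182), and C3 itself was listed at 0 in all 4 libraries.

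Receptors for antibodies and debris were called in both directions. Of 26 Fc and phagocytic receptor genes, 20 were tested. Of these, 11 were higher in Cx3cr1-Cre (beside 22.5% of all tested genes) and 6 in Gfap-Cre (near the 27.5% of all tested genes). Trem2, a lipid-sensing receptor of microglia, stood at 742 and 345 CPM against 0 in both Gfap-Cre libraries, at least 475-fold higher. Its signalling partner Tyrobp stood at 4239.8 and 1731 CPM against 0 and 1.14, a ratio of 3927 (95% counting interval 1084 to 32474). Fcer1g, the shared signalling chain of Fc receptors, gave a ratio of 16326 (95% counting interval 2926 to 645169) at 7086 and 5605 CPM. The engulfment genes toward astrocytes were others: Megf10, a receptor for dying cells and synapses, stood at 164 and 228 CPM against 0 and 0, at least 19.98-fold higher (adjusted p = 0.000489). Adgrb1, a receptor for phosphatidylserine, stood at 1383 and 1279.6 CPM against 116 and 30.0, a log2 difference of 4.04 ± 0.58 (adjusted p = 0.000851). Adgrb1 was higher still in the neuronal libraries, at 2469 to 3493 CPM. Itgb5, an integrin chain of the engulfment machinery, was present in both glia at 156 and 165 CPM in Gfap-Cre and 949 and 757 CPM in Cx3cr1-Cre and higher in Cx3cr1-Cre by a log2 difference of -2.51 ± 0.35.

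Sensors of microbes and injury followed the microglial group, with exceptions. Cd14, a co-receptor for lipopolysaccharide, stood at 96.8 and 202 CPM in Cx3cr1-Cre with no count in Gfap-Cre, at least 124-fold higher. Tlr7, a sensor of single-stranded RNA, stood at 142 and 149.9 CPM, also with no count in Gfap-Cre and at least 124-fold higher. Nfkb1, a subunit of NF-kB, stood at 45.0 and 44.6 CPM in Gfap-Cre and 348 and 322 in Cx3cr1-Cre, a log2 difference of -3.00 ± 0.32 (adjusted p = 0.000222). Tlr3, the sensor of double-stranded RNA, was even, at 109 and 119 CPM in Gfap-Cre and 123 and 89.9 CPM in Cx3cr1-Cre (log2 difference -0.01 ± 0.34, adjusted p = 0.985), and exceeded its 0.997 to 3.17 CPM in neuronal libraries. Nfkbia, the inhibitor of NF-kB, also lay within overlapping ranges, at 174 and 204 CPM in Gfap-Cre and 219 and 127 CPM in Cx3cr1-Cre (adjusted p = 0.993).

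Among the cytokine genes called toward microglia, the ligands were Ccl9, Ccl12 and Il1a, and the others were receptors; Ccl12 could not be tested without either Cx3cr1-Cre library. Ifngr1, a chain of the interferon gamma receptor, stood at 97.4 and 111 CPM in Gfap-Cre against 1239 and 877 in Cx3cr1-Cre, a log2 difference of -3.45 ± 0.39. Its other chain Ifngr2 stood at 6.24 and 12.6 against 226 and 352 CPM, a log2 difference of -4.89 ± 0.40, so the receptor was in both glia and higher in microglia. The interleukin 10 receptor chain Il10rb differed by -4.63 ± 0.35. The cytokine Il1a stood at 109.7 and 127 CPM against 0 and 0 and was at least 100.2-fold higher, while Tnf, Il1b and Il10 were listed at 0 in all 4 libraries. Cxcl14, a chemokine, went toward astrocytes at 583 and 585 CPM against 38.7 and 7.49 (log2 difference 4.49 ± 0.58, adjusted p = 0.00048).

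Antigen presentation separated into genes with almost no count in astrocytes and genes present in both glia. The class II chain H2-Aa stood at 387 and 472 CPM in Cx3cr1-Cre against 0 and 0.572 in Gfap-Cre, and its partner chain H2-Ab1 at 1536 and 1206 CPM against 2.50 and 2.86. Their chaperone Cd74 stood at 2052 and 1446 CPM against 0 and 1.14. B2m, the light chain of class I molecules, stood at 393 and 297 CPM in Gfap-Cre and 8473 and 8572 in Cx3cr1-Cre, a log2 difference of -4.71 ± 0.46 (adjusted p = 0.000158). H2-D1, a class I heavy chain that shares sequence with H2-K1 and is therefore uncertain, stood at 78.7 and 93.2 CPM in Gfap-Cre and 1652 and 1266 CPM in Cx3cr1-Cre. Border macrophages also carry class II, and their markers moved with the microglial group: Mrc1 stood at 355 and 862 CPM, Cd163 at 116 and 465 and Pf4 at 142 and 172, each with no count in Gfap-Cre. The part of these cells in the class II values was not tested.

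The intracellular genes of immune receptor signalling given here had low levels or no count in Gfap-Cre. Vav1, an exchange factor downstream of immune receptors, stood at 155 and 142 CPM in Cx3cr1-Cre and at 0 in both Gfap-Cre libraries, at least 127-fold higher (adjusted p = 0.000134). Inpp5d, the lipid phosphatase SHIP1, stood at 174 and 382 CPM against 0 and 0.572, a ratio of 689.8 (95% counting interval 120.2 to 27591). Pik3cg, the catalytic subunit of the PI3-kinase gamma complex, stood at 290.4 and 509.5 CPM against 0 and 0, at least 333-fold higher. Coro1a, an actin regulator, had the smallest difference of the tested members, at 13.7 and 7.43 CPM in Gfap-Cre and 245 and 217 CPM in Cx3cr1-Cre (log2 difference -4.65 ± 0.42), and neuronal libraries held 18.9 to 96.0 CPM.

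The transcription factor PU.1, encoded by Spi1, is a known regulator of macrophage genes, and its core motif was searched in RefSeq promoters (GRCm38.p6, the assembly that mm10 names), from 250 bases before to 50 after each gene's start. The letters GAGGAAGT, on either strand, were found in 3.2% of 32851 promoters, in 2.05% of 1808 promoters of genes higher in Gfap-Cre and in 4.97% of 1489 promoters of genes higher in Cx3cr1-Cre. Among the promoters of all tested genes, 2.93% of 6588 held them. In the immune receptor signalling list 6 of 33 promoters, from 5 of 25 genes, held them, and in the microglia identity list 1 of 17. None of the 22 promoters of the astrocyte identity list or the 14 of the cholesterol synthesis list did. Shown here are the C1qc promoter and 3 from the signalling list, 5′ to 3′ on the gene's strand, with the match in capitals; ACTTCCTC is the motif on the opposite strand. The windows are chr4:136892865-136893164 for C1qc (minus strand), chr17:57278850-57279149 for Vav1 (plus), chr1:87620062-87620361 for Inpp5d (plus) and chr12:32208421-32208720 for Pik3cg (minus).
C1qc: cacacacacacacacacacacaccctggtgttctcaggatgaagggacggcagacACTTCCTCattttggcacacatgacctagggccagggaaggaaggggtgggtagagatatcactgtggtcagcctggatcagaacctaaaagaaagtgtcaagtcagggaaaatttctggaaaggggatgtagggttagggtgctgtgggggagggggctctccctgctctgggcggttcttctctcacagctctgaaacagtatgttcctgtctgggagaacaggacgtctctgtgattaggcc
Vav1: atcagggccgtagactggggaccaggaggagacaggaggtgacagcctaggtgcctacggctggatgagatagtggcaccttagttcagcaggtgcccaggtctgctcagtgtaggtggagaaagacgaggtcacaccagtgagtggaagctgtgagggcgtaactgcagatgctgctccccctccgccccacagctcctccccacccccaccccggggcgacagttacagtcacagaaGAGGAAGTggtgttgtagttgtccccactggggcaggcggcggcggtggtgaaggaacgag
Inpp5d: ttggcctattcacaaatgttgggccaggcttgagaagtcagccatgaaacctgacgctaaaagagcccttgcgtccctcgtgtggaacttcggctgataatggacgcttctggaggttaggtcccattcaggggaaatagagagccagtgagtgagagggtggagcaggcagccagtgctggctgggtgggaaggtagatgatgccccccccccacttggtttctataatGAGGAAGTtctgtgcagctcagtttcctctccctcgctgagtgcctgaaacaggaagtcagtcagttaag
Pik3cg: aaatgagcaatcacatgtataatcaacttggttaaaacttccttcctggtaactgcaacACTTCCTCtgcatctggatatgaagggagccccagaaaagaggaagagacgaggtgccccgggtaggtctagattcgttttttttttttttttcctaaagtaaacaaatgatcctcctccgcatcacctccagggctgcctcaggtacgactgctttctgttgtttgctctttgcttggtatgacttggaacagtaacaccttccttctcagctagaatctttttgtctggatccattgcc
The matches began 195 bases before the start in C1qc, 11 in Vav1, 20 in Inpp5d and 191 in Pik3cg. A match describes letters in the window and is neither a binding site nor a cause. Promoters were matched for 4969 of the 6473 tested genes.

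Transcription factors divided almost evenly. Of 30 listed, 26 were tested. Of these, 11 were higher in Gfap-Cre (beside 27.5% of all tested genes) and 12 in Cx3cr1-Cre (beside 22.5%). Spi1 stood at 497 and 157 CPM in Cx3cr1-Cre against 0 and 0, at least 289-fold higher (adjusted p = 0.000286), and Irf8, its partner in myeloid cells, at 142 and 112 CPM, at least 109-fold higher. Sall1, often used as a microglial factor, was not restricted to that group: it stood at 54.9 and 76.6 CPM in Gfap-Cre and 329 and 554 in Cx3cr1-Cre (log2 difference -2.81 ± 0.37, adjusted p = 0.000543). Toward astrocytes, the neural progenitor factor Sox2 stood at 833 and 922 CPM against 0 and 0, at least 85.9-fold higher, and the forebrain factor Emx2 at 805 and 695 CPM, at least 70.1-fold higher. Lhx2, a cortical patterning factor, stood at 857 and 969 against 6.45 and 22.5 CPM (log2 difference 5.93 ± 0.54). Nuclear factor I members differed: Nfib, at 498 and 449.8 against 6.45 and 7.49 CPM, had a ratio of 67.1 (95% counting interval 18.52 to 554), whereas Nfia at 636 and 683 against 142 and 427 CPM, not overlapping, did not pass (adjusted p = 0.0695). With 1 Cx3cr1-Cre library left, and the spread taken from the Gfap-Cre pair, the adjusted p was 0.0425 without replicate 1 and 3.53e-05 without replicate 2.

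Lysosomal genes were mostly higher in microglia but most had counts in both glia. Of 27 listed, 26 were tested and 6 did not pass. Of those tested, 18 were higher in Cx3cr1-Cre (beside 22.5% of all tested genes) and 2 in Gfap-Cre (beside 27.5%). The protease Ctss stood at 12158 and 14889 CPM against 0 and 1.71, a ratio of 11411 (95% counting interval 3902 to 55359). Lgmn, an asparaginyl protease, stood at 5976 and 7725 CPM against 189 and 300 (log2 difference -4.90 ± 0.47). Ctsd, an aspartyl protease, stood at 1304 and 1161 CPM against 125 and 120 (log2 difference -3.43 ± 0.36). Structural proteins of the lysosomal membrane did not pass: Lamp1 stood at 432 and 481 CPM in Gfap-Cre and 368 and 329.7 CPM in Cx3cr1-Cre (adjusted p = 0.489) and Lamp2 at 401 and 446 CPM in Gfap-Cre and 323 and 637 CPM in Cx3cr1-Cre (adjusted p = 0.608). The 2 genes called toward astrocytes were Cd63, a tetraspanin of late endosomes, with a log2 difference of 2.24 ± 0.50, and Gaa, the enzyme that degrades glycogen in lysosomes.

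Astrocytes held the genes of transmitter uptake. Of 17 genes of glutamate and GABA clearance, 14 were tested, 9 were higher in Gfap-Cre (27.5% of all tested genes were) and 1 was higher in Cx3cr1-Cre. Slc1a2, the main glutamate transporter of astrocytes, stood at 12027 and 10353 CPM in Gfap-Cre and 45.2 and 45.0 in Cx3cr1-Cre, a log2 difference of 7.86 ± 0.57 (adjusted p = 7.75e-05). Slc1a3, the second glial glutamate transporter, stood at 5424 and 4498 CPM against 136 and 225 (log2 difference 4.71 ± 0.46). Abat, which breaks down GABA, differed by 5.17 ± 0.44, and Glud1, glutamate dehydrogenase, by 2.93 ± 0.38 on the log2 scale. Glul, the glutamine synthetase often used as an astrocyte marker, was abundant in both glia: 7508 and 5939.6 CPM in Gfap-Cre and 4375 and 2832 in Cx3cr1-Cre, not overlapping, with a log2 difference of 0.80 ± 0.44 that did not pass (adjusted p = 0.167). Neuronal libraries held 34.9 to 79.3 CPM of Glul. Without Cx3cr1-Cre replicate 1 it passed (adjusted p = 0.0155).

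Of 20 genes of ion, water and gap junction transport, 16 were tested. Of these, 12 were higher in Gfap-Cre (beside 27.5% of all tested genes) and 3 in Cx3cr1-Cre (near the 22.5% of all tested genes). Aqp4, the water channel of astrocyte endfeet, stood at 1149 and 1545 CPM against 6.45 and 37.5 (log2 difference 5.90 ± 0.60). Kcnj10, the potassium channel Kir4.1, stood at 1025 and 983 CPM against 0 and 7.49, a ratio of 287 (95% counting interval 51.5 to 11353). Gja1, the gap junction protein connexin 43, stood at 2888 and 2453 CPM against 19.4 and 0, a ratio of 249 (95% counting interval 85.1 to 1208). Atp1b2, a glial subunit of the sodium pump, differed by 5.79 ± 0.47 on the log2 scale. Kcnk6, a background potassium channel, went toward microglia at 174 and 345 CPM against 0 and 0, at least 215-fold higher. Slc12a2, a chloride importer also found in oligodendrocytes, stood at 6.24 and 50.9 CPM in Gfap-Cre and 136 and 142 in Cx3cr1-Cre (log2 difference -2.22 ± 0.71). Its higher Gfap-Cre library was the one with more oligodendrocyte counts, a part that was not tested, and the call was lost without Gfap-Cre replicate 1 (adjusted p = 0.122).

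Receptors for transmitters and nucleotides also differed. Of 20 transmitter receptor genes, 12 were tested. Of these, 9 were higher in Gfap-Cre (beside 27.5% of all tested genes) and 1 in Cx3cr1-Cre (beside 22.5%). Grm3, a metabotropic glutamate receptor, stood at 563 and 635 CPM against 0 and 7.49, a ratio of 177 (95% counting interval 31.7 to 6981). Gabbr1, a subunit of the GABA-B receptor, stood at 612 and 621 CPM against 12.9 and 37.5 (log2 difference 4.56 ± 0.50). Ednrb, the endothelin B receptor, stood at 919 and 848 CPM against 51.6 and 30.0 (log2 difference 4.31 ± 0.46) and at 3.99 to 8.42 CPM in neurons.

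Of 16 purinergic genes 8 were tested and 4 were called in each direction, beside 27.5% of all tested genes toward Gfap-Cre and 22.5% toward Cx3cr1-Cre. Among the tested genes, the nucleotide receptors went toward microglia and the adenosine receptors Adora1 and Adora2b with the kinase Adk toward astrocytes. A receptor of each kind had too few counts to test and lay on the other side. Adora3 stood at 25.8 and 37.5 CPM in Cx3cr1-Cre and at 0 in Gfap-Cre. P2ry1 stood at 1.25 and 7.43 CPM in Gfap-Cre and at 0 in Cx3cr1-Cre. P2ry12, the ADP receptor that steers microglial processes, stood at 3278 and 4061 CPM against 15.0 and 14.3 (log2 difference -8.05 ± 0.48), and P2ry13 at 549 and 345 CPM against 0 and 0, at least 386-fold higher. P2rx7, an ATP-gated channel, had counts in both glia, at 22.5 and 26.9 CPM in Gfap-Cre and 200.1 and 135 CPM in Cx3cr1-Cre (log2 difference -2.85 ± 0.38). Entpd1, the ectoenzyme CD39 that removes ATP, stood at 219 and 419.6 CPM against 2.50 and 1.71 (log2 difference -7.30 ± 0.51). Its relative Entpd2 stood at 38.7 and 36.6 CPM in Gfap-Cre and at 0 in both Cx3cr1-Cre libraries, at least 3.58-fold higher (adjusted p = 0.0101). Adk, which removes adenosine inside the cell, stood at 448 and 463 CPM against 32.3 and 37.5 (log2 difference 3.61 ± 0.41), and the adenosine receptor Adora1 at 72.4 and 76.6 CPM against 6.45 and 7.49, a ratio of 10.9 (95% counting interval 2.96 to 90.3). Entpd2 could not be tested without either Gfap-Cre library, and Adora1 lost its call without replicate 1 (adjusted p = 0.077) or replicate 2 (adjusted p = 0.107).

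Of 18 genes of cholesterol synthesis, 13 were tested and 13 were higher in Gfap-Cre, beside 27.5% of all tested genes. Of the 18, 9 had no count in Cx3cr1-Cre. Any of these that was tested entered through Gfap-Cre alone, which fixed its direction. Hmgcs1, which makes the precursor HMG-CoA, stood at 724 and 841 CPM against 19.4 and 30.0 (log2 difference 4.90 ± 0.45, adjusted p = 0.000141). Sqle, which makes the sterol precursor epoxide, stood at 693 and 721 CPM against 0 and 0, at least 68.4-fold higher. Msmo1, a sterol demethylation enzyme, differed by 3.89 ± 0.41 on the log2 scale. Neuronal libraries held 60.3 to 92.2 CPM of Hmgcs1 and 152 to 164 of Sqle, each range below both Gfap-Cre libraries. The median log2 difference of the tested members was 4.90, and 3.89 with genes that had no Cx3cr1-Cre count at their bound, beside 0.27 over all tested genes. Several low members, such as Fdft1 and Idi1, had no Cx3cr1-Cre count and could not be tested without either Gfap-Cre library.

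Sterol-responsive promoters are bound by SREBP at an element whose letters TCACNCCAC were searched on both strands. They were found in 1.24% of all 32851 promoters, in 1.16% of those of genes higher in Gfap-Cre and in 1.28% of those of genes higher in Cx3cr1-Cre. The letters stood in 2 of 22 promoters of the astrocyte identity list, 1 of 33 of the immune receptor signalling list and none of 17 of the microglia identity list. Among 14 promoters of the cholesterol list 1 held them, that of Hmgcs1, shown with the match in capitals beginning 137 bases before the start (chr13:119690101-119690400, plus strand).
Hmgcs1: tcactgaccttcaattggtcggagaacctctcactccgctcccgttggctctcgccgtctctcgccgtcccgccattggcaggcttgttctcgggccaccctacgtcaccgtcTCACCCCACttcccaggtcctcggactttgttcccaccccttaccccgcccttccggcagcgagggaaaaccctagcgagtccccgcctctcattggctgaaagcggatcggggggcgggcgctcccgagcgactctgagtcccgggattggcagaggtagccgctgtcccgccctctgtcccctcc
No match elsewhere says only that these letters were not in the windows.

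Of 29 lipid genes 22 were tested, 11 were higher in Gfap-Cre (beside 27.5% of all tested genes), 5 in Cx3cr1-Cre (a share near the 22.5% of all tested genes) and 6 did not pass. Scd2, a fatty acid desaturase, stood at 4747 and 3576 CPM against 77.4 and 59.9 (log2 difference 5.82 ± 0.50). Fabp7, the brain fatty acid binding protein, stood at 494 and 756 against 6.45 and 30.0 CPM (log2 difference 5.05 ± 0.59), and the ligases Acsl3 and Acsl6, which activate fatty acids, differed by 6.15 ± 0.57 and 5.68 ± 0.50. The exporter Abcg1 went toward microglia at 497 and 592 CPM against 2.50 and 16.00 (log2 difference -5.76 ± 0.59), as did its regulator Rxra by -2.73 ± 0.47. Its partner Abca1 was in both glia at 253 and 315 CPM in Gfap-Cre and 465 and 509.5 CPM in Cx3cr1-Cre, not overlapping, and did not pass (adjusted p = 0.0538). Apoe, the main lipid carrier of the brain, stood at 255 and 237 CPM in Gfap-Cre and 290.4 and 442 in Cx3cr1-Cre. Its log2 difference of -0.65 ± 0.34 did not pass (adjusted p = 0.141), and neuronal libraries held 0.499 to 1.59 CPM. Abca1 passed without either Cx3cr1-Cre library (adjusted p = 0.0231 without replicate 1, 0.0168 without replicate 2), and Apoe without Cx3cr1-Cre replicate 1 (adjusted p = 0.0232).

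Sugar metabolism genes were called mostly toward astrocytes, and isoforms differed. Of 28 genes of glycolysis, glycogen and lactate, 20 were tested and 5 did not pass. Of those tested, 13 were higher in Gfap-Cre (beside 27.5% of all tested genes) and 2 in Cx3cr1-Cre (beside 22.5%). The hexokinase Hk2 went toward microglia, at 45.2 and 67.4 CPM in Cx3cr1-Cre against 2.50 and 2.29 in Gfap-Cre (log2 difference -4.57 ± 0.55, adjusted p = 0.000361). Aldoc, the brain aldolase, stood at 6158 and 4605 CPM against 58.1 and 15.0 (log2 difference 7.05 ± 0.66), while Aldoa overlapped at 398 and 354 CPM in Gfap-Cre and 536 and 179.8 CPM in Cx3cr1-Cre (adjusted p = 0.938). Without Cx3cr1-Cre replicate 1, the library with the higher level, Aldoa had an adjusted p of 0.00342 toward astrocytes, with the spread taken from the Gfap-Cre pair. Pfkm, a phosphofructokinase, stood at 482 and 435 CPM against 6.45 and 15.0, a ratio of 43.2 (95% counting interval 14.8 to 209.9), and Pygb, a glycogen phosphorylase, at 477 and 461 CPM against 12.9 and 7.49, a ratio of 44.8 (95% counting interval 15.3 to 218). Ppp1r3c, a scaffold for glycogen synthesis, stood at 159.8 and 151 CPM against 0 and 0, at least 14.8-fold higher. Slc2a5, a fructose transporter and microglial marker, stood at 561 and 495 CPM against 0 and 0 in Gfap-Cre, at least 451-fold higher (adjusted p = 7.55e-05). Slc2a1, the glucose transporter GLUT1, went the other way at 48.7 and 60.0 CPM against 0 and 15.0, a ratio of 8.14 (95% counting interval 2.21 to 67.9, adjusted p = 0.0231), and could not be tested without either Gfap-Cre library.

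Of 20 genes of amino acid and one-carbon metabolism, 17 were tested. Of these, 14 were higher in Gfap-Cre (beside 27.5% of all tested genes) and none in Cx3cr1-Cre (beside 22.5%). Psat1, of serine synthesis, stood at 479 and 668 CPM against 71.0 and 7.49 (log2 difference 3.69 ± 0.66), and Prodh, which oxidises proline, at 91.1 and 97.2 CPM against 0 and 0, at least 9.16-fold higher. Dbi, a carrier of acyl-CoA, differed by 5.04 ± 0.50 on the log2 scale. Of 30 redox and metal genes, 27 were tested, 13 were higher in Gfap-Cre and 12 in Cx3cr1-Cre, beside the same shares. Of those toward astrocytes, the metallothionein Mt2 stood at 4699.8 and 3115 CPM against 19.4 and 15.0 (log2 difference 7.72 ± 0.60), the glutathione transferase Gstm1 at 1994 and 1373 against 25.8 and 15.0 (log2 difference 6.24 ± 0.55), and Slc7a11, which imports cystine for glutathione, at 531 and 592 CPM against 0 and 0. The bound for Slc7a11 was at least 55.03-fold. Of those toward microglia, Slc40a1, the iron exporter ferroportin, stood at 200.1 and 232 CPM against 4.99 and 3.43 (log2 difference -5.81 ± 0.42), and Ncf1, a subunit of the phagocyte oxidase, at 736 and 299.7 CPM against 0 and 0.572, a ratio of 1362 (95% counting interval 241 to 54138). Txnip, an inhibitor of thioredoxin, also went toward microglia, at 1381 and 1004 CPM against 98.6 and 94.9 (log2 difference -3.73 ± 0.39).

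Secreted matrix and synapse-organising proteins were largely astrocytic, 16 of 19 tested genes of 29 listed (beside 27.5% of all tested genes). Toward microglia 2 were called (beside 22.5%). Of the 29, 14 had no count in Cx3cr1-Cre, and any of these that was tested had its direction fixed. The median log2 difference of the tested members was 7.26, and 4.32 with genes that had no count in a group at their bound. Sparcl1, known as hevin and a promoter of synapse formation, stood at 20764 and 13270.3 CPM against 297 and 195 (log2 difference 6.01 ± 0.60), with 1629 to 5461 CPM in neurons. Its relative Sparc, an antagonist of hevin in synapse formation, went toward microglia at 5595 and 7388 CPM against 760.4 and 907 (log2 difference -3.05 ± 0.40, adjusted p = 0.000563) and stood at 2.99 to 12.7 CPM in neurons. Bcan, a proteoglycan of perineuronal matrix, stood at 3074 and 2527 CPM in Gfap-Cre against 12.9 and 0, a ratio of 389 (95% counting interval 108 to 3214). The proteoglycan Cspg5 stood at 3049 and 2478 CPM against 25.8 and 37.5 (log2 difference 6.37 ± 0.50). Thbs4, a thrombospondin, stood at 169 and 169.7 CPM against 0 and 0, at least 16.3-fold higher, and Mdk, the growth factor midkine, at 214 and 303 CPM, at least 26.5-fold higher. Olfml3, a secreted protein of microglia, went toward Cx3cr1-Cre at 1110 and 532 CPM against 1.25 and 4.00 (log2 difference -8.14 ± 0.68).

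Ligands and receptors of glial crosstalk lay on opposite sides in several pairs. Csf1r, the receptor that keeps microglia alive, stood at 13229 and 7418 CPM in Cx3cr1-Cre and 3.75 and 4.00 in Gfap-Cre, a log2 difference of -11.43 ± 0.74 (adjusted p = 7.14e-05). Its ligand Csf1 went toward astrocytes at 61.2 and 80.0 CPM against 12.9 and 30.0, a log2 difference of 1.67 ± 0.54 (adjusted p = 0.0336). That call was lost without Cx3cr1-Cre replicate 1 (adjusted p = 0.0551) or Gfap-Cre replicate 1 (adjusted p = 0.164), and Csf1 could not be tested without Gfap-Cre replicate 2. Il34, the other ligand of Csf1r, had 1 count in the 4 libraries. Cx3cl1, the ligand of Cx3cr1, stood at 189.8 and 145 CPM in Gfap-Cre against 19.4 and 0, a ratio of 15.3 (95% counting interval 5.20 to 74.5), and was highest in neurons at 902 to 1634 CPM. The Gfap-Cre libraries also held pan-neuronal markers, at 0.245% and 0.155% of counts, and the part of neuronal RNA in their Cx3cl1 value was not tested. Il33, an alarmin of astrocytes, stood at 619 and 494 CPM against 0 and 0, at least 51.3-fold higher (adjusted p = 0.000187). Its receptor gene Il1rl1 stood at 32.3 and 22.5 CPM in Cx3cr1-Cre and at 0 in Gfap-Cre, too few counts to test.

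The TGF-beta pathway, which maintains microglial identity, showed the same arrangement at the receptor level. Tgfbr1 stood at 1768 and 2862 CPM against 8.74 and 8.57 (log2 difference -8.12 ± 0.50) and Tgfbr2 at 1039 and 839 CPM against 18.7 and 13.7 (log2 difference -5.98 ± 0.44). The ligand Tgfb2 stood at 56.2 and 57.7 CPM in Gfap-Cre against 0 and 0, at least 5.50-fold higher (adjusted p = 0.00467), but could not be tested without either Gfap-Cre library. Tgfb1 had 1 count in the 4 libraries. Among BMP receptors, Bmpr1b stood at 176 and 187 CPM against 0 and 0, at least 17.6-fold higher. Bmpr1a stood at 323 and 420.1 CPM against 12.9 and 89.9 (log2 difference 2.83 ± 0.59), whereas Bmpr2 at 278 and 372 against 207 and 285 CPM did not pass (adjusted p = 0.457). Of the Id genes, which BMP signals induce, Id2 stood at 1189.9 and 1289 CPM against 123 and 59.9 (log2 difference 3.64 ± 0.46). Id3 and Id4 had no Cx3cr1-Cre count and were at least 36.3 and 31.1-fold higher. Id1 at 41.2 and 37.1 against 0 and 7.49 CPM had a ratio of 11.1 (95% counting interval 1.94 to 442) and could not be tested without either Gfap-Cre library. Smad7, an inhibitor of the pathway, went toward microglia by -2.72 ± 0.55, and the shared mediator Smad4 overlapped at 35.0 and 40.6 CPM in Gfap-Cre and 19.4 and 37.5 CPM in Cx3cr1-Cre. Of 26 genes of this pathway 21 were tested and 5 did not pass. Of those tested, 9 were higher in Gfap-Cre (beside 27.5% of all tested genes) and 7 in Cx3cr1-Cre (beside 22.5%).

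The ligands Gas6 and Pros1, which bridge dying cells to receptors of the Axl, Mertk and Tyro3 family, lay toward microglia. Of these receptors, Axl lay toward astrocytes. Pros1 stood at 168 and 307 CPM in Cx3cr1-Cre against 6.24 and 10.9 (log2 difference -4.75 ± 0.43, adjusted p = 0.000134). Gas6 stood at 136 and 329.7 CPM against 89.9 and 111 (log2 difference -1.26 ± 0.40, adjusted p = 0.031), a call kept in 1 of 4 fits that leave out a library. It had an adjusted p of 0.311 without Gfap-Cre replicate 1, 0.234 without Gfap-Cre replicate 2 and 0.235 without Cx3cr1-Cre replicate 2. Axl stood at 93.6 and 129.7 CPM in Gfap-Cre against 19.4 and 15.0 (log2 difference 2.59 ± 0.51, adjusted p = 0.00413) and fell short without Gfap-Cre replicate 2 (adjusted p = 0.0644). Mertk had 3 counts in the 4 libraries and was not tested. Cd47, a signal against engulfment, stood at 87.4 and 85.2 CPM in Gfap-Cre and 25.8 and 119.9 in Cx3cr1-Cre and did not pass (adjusted p = 0.758), though it passed toward astrocytes without Cx3cr1-Cre replicate 2 (adjusted p = 0.022). Its receptor Sirpa stood at 1026 and 814 CPM in Gfap-Cre and 1019.6 and 659 in Cx3cr1-Cre, overlapping (adjusted p = 0.965). Sirpa also stood at 423 to 711 CPM in neurons. Ntrk2, the receptor of brain-derived neurotrophic factor, stood at 3986 and 3812 CPM in Gfap-Cre against 6.45 and 22.5 (log2 difference 8.02 ± 0.60), well above its 319.7 to 409 CPM in neurons. In all, 20 of 30 ligand and receptor genes were tested, 6 were higher in Gfap-Cre (near the share of 27.5% of all tested genes), 9 in Cx3cr1-Cre (beside 22.5%) and 5 did not pass.

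**Figure D4:**
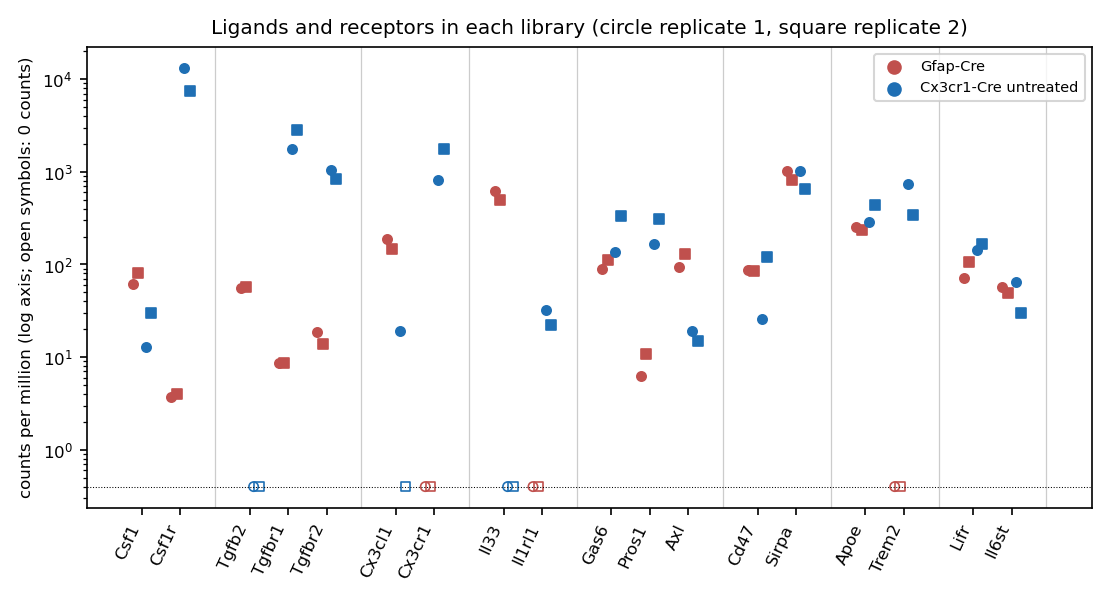
CPM (log axis) of ligands and receptors in each library, red for Gfap-Cre and blue for untreated Cx3cr1-Cre, circles for replicate 1 and squares for replicate 2, open symbols on the dotted line for 0 counts. The receptors Csf1r, Tgfbr1 and Tgfbr2 lie high in blue, the ligands Tgfb2 and Il33 appear in red alone, and Sirpa and Apoe lie close together in both colours.

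Developmental signalling genes were mostly astrocytic, 13 of 17 tested genes among 28 of the Notch, Wnt, Hedgehog and FGF pathways (beside 27.5% of all tested genes). Toward microglia 3 were called, near the 22.5% of all tested genes. Of the 28, 16 had no count in Cx3cr1-Cre, and any of these that was tested had its direction fixed. The median log2 difference of the tested members was 5.27, and 2.46 with genes that had no count in a group at their bound. Fgfr3, an astrocyte FGF receptor, stood at 814 and 881 CPM against 0 and 0, at least 82.7-fold higher, and Fgfr2 at 248 and 315 CPM, at least 28.3-fold higher. Fgfr1 was uneven in microglia, at 259.7 and 253 CPM against 6.45 and 67.4 (log2 difference 2.78 ± 0.61). The Notch target Hey1 stood at 298 and 278 CPM against 6.45 and 7.49, a ratio of 41.0 (95% counting interval 11.3 to 339.6). Lrp6, a Wnt co-receptor, went toward microglia at 252 and 427 CPM against 46.2 and 57.7 (log2 difference -2.77 ± 0.35), and Rbpj, the DNA-binding partner of Notch, by -2.56 ± 0.42. Notch1 and Notch2 were called in opposite directions: Notch1 stood at 214 and 235 CPM in Gfap-Cre and 45.2 and 30.0 in Cx3cr1-Cre (log2 difference 2.46 ± 0.41, adjusted p = 0.00179), and Notch2 at 105 and 113 CPM in Gfap-Cre and 168 and 209.8 in Cx3cr1-Cre (log2 difference -0.87 ± 0.30, adjusted p = 0.0422). The Notch2 call was kept only without Cx3cr1-Cre replicate 1. It was lost without Gfap-Cre replicate 1 (adjusted p = 0.441), Gfap-Cre replicate 2 (adjusted p = 0.439) or Cx3cr1-Cre replicate 2 (adjusted p = 0.0653).

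Of 30 pairs of related genes, 4 were called in opposite directions, which were Notch1 and Notch2, Slc2a1 and Slc2a5, Entpd1 and Entpd2, and Slc38a1 and Slc38a3. Slc38a3, the glutamine exporter SN1 of astrocytes, stood at 147 and 194 CPM against 0 and 0, at least 17.2-fold higher (adjusted p = 0.000539). Slc38a1, a glutamine importer, stood at 168 and 179.8 CPM in Cx3cr1-Cre against 68.7 and 82.3 (log2 difference -1.29 ± 0.30, adjusted p = 0.00862) and was highest in Gad2-Cre at 346 and 328. The call of Slc38a1 was lost without Gfap-Cre replicate 1 (adjusted p = 0.255) or replicate 2 (adjusted p = 0.204). In the next 2 pairs only one member had counts in both glia. Timp2, a metalloproteinase inhibitor, stood at 411 and 498 CPM in Gfap-Cre and 665 and 742 CPM in Cx3cr1-Cre and did not pass (adjusted p = 0.0957), beside Timp3 with no microglial count. Tnfrsf1a, the broadly used TNF receptor, stood at 56.2 and 55.4 CPM in Gfap-Cre and 239 and 315 in Cx3cr1-Cre (log2 difference -2.39 ± 0.31), whereas Tnfrsf1b had no count in Gfap-Cre and stood at 148 and 119.9 CPM in Cx3cr1-Cre, at least 115-fold higher.

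Genes of RNA handling and of the RAF to MAP kinase cascade were called about as often as all tested genes (50.0%). Of 32 RNA-binding and 3′ end factors, 24 were tested, 4 were higher in Gfap-Cre, 7 in Cx3cr1-Cre and 13 did not pass. Mbnl1, a splicing regulator, stood at 684 and 427 CPM in Cx3cr1-Cre against 56.2 and 52.0 (log2 difference -3.47 ± 0.41), and Papola, a poly(A) polymerase, at 529 and 592 CPM against 81.2 and 101 (log2 difference -2.71 ± 0.33). Cstf2, a cleavage factor, went toward astrocytes at 281 and 318 against 96.8 and 37.5 CPM (log2 difference 2.02 ± 0.46), as did Msi2, a regulator of translation, by 2.06 ± 0.42. Of 16 RAF and MAP kinase genes, 13 were tested, 3 were higher in each group and 7 did not pass. Dusp6, a phosphatase that limits the cascade, stood at 407 and 727 CPM in Cx3cr1-Cre against 32.5 and 35.4 (log2 difference -4.12 ± 0.40). Egfr, an upstream receptor, stood at 94.9 and 97.2 CPM against 6.45 and 0, a ratio of 27.8 (95% counting interval 4.95 to 1103) toward astrocytes. Araf overlapped, at 112 and 111 CPM in Gfap-Cre and 90.3 and 119.9 CPM in Cx3cr1-Cre (adjusted p = 0.988).

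Beside these differences, 396 of 9421 genes (4.20%) were higher in both glia than in both neuronal groups in a fit of 8 libraries. Each passed an adjusted p under 0.05 with a log2 difference of at least 2 in all 4 contrasts of a glial with a neuronal group. These values chose the genes and are given as a description. The rule sets no minimum level, and the mean of the lower glial group ran from 2.39 CPM upward with a median of 33.9 CPM. Of the 396, 8 are Ugt1a genes with the same counts in every library, which are 1 measurement. At the edge of the rule, the smallest of its 4 log2 differences was 2.00 for Exosc5, just inside, and 1.99 for Pik3c2a, just outside. Of the 396, 354 were also tested between the glia and 176 did not pass. Of those tested, 48 were higher in Gfap-Cre (beside 27.5% of all tested genes) and 130 in Cx3cr1-Cre (beside 22.5%). The 3 Cx3cr1-Cre libraries made after PBS injection were not used by the rule, but the neuronal libraries were, so a part of the next count was fixed by the choice of genes. The PBS mean was at least 4-fold over the higher neuronal mean for 357 of the 396, beside 12.3% of all 9421 genes. The PBS libraries came from the same Cre line as the untreated pair.

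The shared genes differed in how evenly the glia used them. Cst3, a secreted inhibitor of cathepsins, stood at 10601 and 6222 CPM in Gfap-Cre and 79434 and 48450.4 in Cx3cr1-Cre, against 161 to 401 in neurons. It was still higher in microglia by a log2 difference of -3.03 ± 0.63 (adjusted p = 0.00547). Qk, an RNA-binding protein of glia, did not overlap but was close, at 1967 and 1721 CPM in Gfap-Cre and 2052 and 2757 CPM in Cx3cr1-Cre (log2 difference -0.46 ± 0.36, adjusted p = 0.316), against 22.4 to 103 in neurons and 1660.1, 2189 and 1282 after PBS. Zfp36l1, which promotes decay of mRNA, stood at 275 and 317 CPM in Gfap-Cre and 329 and 659 CPM in Cx3cr1-Cre against 0.499 to 3.27 in neurons (adjusted p = 0.109 between glia). Serpine2, a secreted protease inhibitor, stood at 6427 and 4903 CPM in Gfap-Cre and 2898 and 1199 CPM in Cx3cr1-Cre, not overlapping, and did not pass (adjusted p = 0.0642). Cd9, a tetraspanin, stood at 199 and 367 CPM in Gfap-Cre and, unevenly, at 1375 and 5358 in Cx3cr1-Cre (log2 difference -3.63 ± 0.65), against 0.997 to 6.34 in neurons. Tpp1, a lysosomal peptidase, stood at 443 and 469 CPM in Gfap-Cre and 381 and 667 CPM in Cx3cr1-Cre and overlapped (adjusted p = 0.554). Without Cx3cr1-Cre replicate 1, and with the spread taken from the Gfap-Cre pair, the adjusted p was 0.00011 for Serpine2 and 0.00121 for Zfp36l1.

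Genes named after one cell type were also among the 396. Slc1a3, listed above with the astrocyte markers, stood at 136 and 225 CPM in Cx3cr1-Cre and 112, 139 and 154 after PBS, against 16.5 to 27.4 in neurons. Slc1a2, the other glutamate transporter, stood lower in Cx3cr1-Cre than in Camk2a-Cre, at 45.2 and 45.0 against 511 and 527 CPM. Sparc and Glul met the rule as well, as did the oligodendrocyte marker Cnp. The mean of Cnp in its lower glial group was 79.5 CPM. Between the glia, Cnp was higher in Gfap-Cre (log2 difference 2.26 ± 0.72, adjusted p = 0.031). The part of oligodendrocyte RNA in its values was not tested. Of the 396 genes, 21 had no count in any neuronal library, among them C4b, at 21.2 and 32.6 CPM in Gfap-Cre and 32.3 and 67.4 in Cx3cr1-Cre, and 55 stood in one of the gene lists. A list of 36 pan-glial candidates was chosen for their behaviour in earlier results of these data, so its counts are only a description. Of the 36, 32 were tested between the glia and 7 did not pass. Of those tested, 8 were higher in Gfap-Cre (near the 27.5% of all tested genes) and 17 in Cx3cr1-Cre (beside 22.5%). The rule was met by 15 of the 36, beside 4.20% of all 9421 genes.

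**Figure D5:**
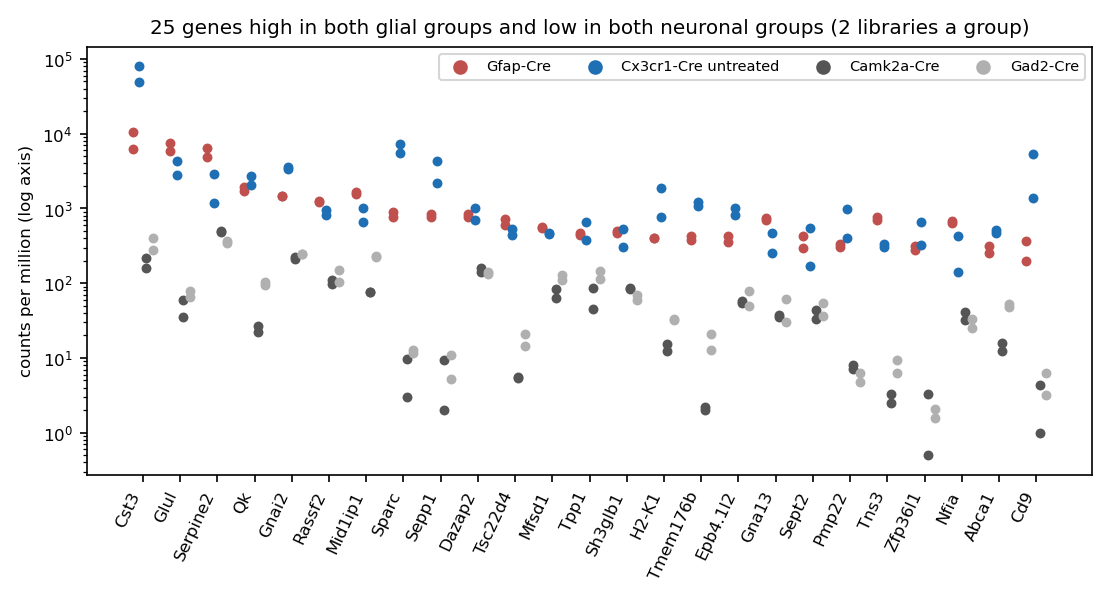
CPM (log axis) of the 25 shared genes with the highest level in the lower glial group, 2 points a group for Gfap-Cre (red), untreated Cx3cr1-Cre (blue), Camk2a-Cre (dark grey) and Gad2-Cre (light grey). Both glial groups lie above both neuronal groups for each gene, as the rule requires; Qk and Tpp1 are close in the 2 glia, while Cst3, Sparc and Cd9 are higher in Cx3cr1-Cre.

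Replacing the untreated microglial libraries by the 3 made after PBS injection gave 1952 genes higher in Gfap-Cre (32.8% of 5958 tested) and 1932 higher in Cx3cr1-Cre (32.4%). Both comparisons share the Gfap-Cre libraries. The PBS libraries were uneven in markers of other cells. Pan-neuronal markers made up 0.0863%, 0.0732% and 0.427% of replicates 1, 2 and 3. Ependymal and choroid plexus markers made up 0.00145%, 0.00150% and 0.0340%. Tmem119 stood at 1218, 1250.3 and 1039 CPM and Csf1r at 8286, 9120.3 and 7621 CPM in the PBS libraries, on the side of the untreated pair. Hmgcs1 stood at 29.0, 26.3 and 26.6 CPM and Slc1a2 at 50.7, 33.8 and 115, again far below Gfap-Cre. Sirpa, even between Gfap-Cre and the untreated pair, stood at 2544, 1776 and 1987 CPM after PBS, with a log2 difference from Gfap-Cre of -1.24 (adjusted p = 0.00186). Slc38a1, called toward untreated Cx3cr1-Cre, stood at 83.4, 82.6 and 74.0 CPM after PBS and did not pass there (adjusted p = 0.674). The untreated and PBS libraries were not compared with each other.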

How the data were processed

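The values are the authors' deposited counts, whole numbers of sequenced tags per gene symbol with 1 table per library. The submitters' processing notes name cutadapt, Novoalign and mm10; versions, the collapsing of random barcodes and the use of strand are not stated in these sources, so overlapping and antisense genes cannot be told apart. Levels were computed as CPM. The 4 glial libraries were fitted with edgeR 4.0.16 (R 4.3.3): filterByExpr, TMM scaling and the quasi-likelihood test, with Benjamini-Hochberg adjustment over all 6473 tested genes and a threshold of 0.05. Standard errors were taken from the fitted difference and its F statistic. A second fit of 8 libraries (9421 genes) chose the shared genes, by log2 differences of at least 2. The scripts were tested on simulated counts. The members and gene lists were chosen with earlier results of these data known.

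Alternatives were DESeq2 1.42.0, RLE scaling, total counts, a replicate block, testing every gene, a minimum of 20 CPM, thinning to 133456 counts, the PBS libraries and leaving out each library. Named genes were the 4 markers, the 10 largest differences in each direction (average log2 CPM of at least 6, groups apart, no predicted, mitochondrial or ribosomal protein genes), the 3 smallest p-values per list and direction, every ligand, receptor and related pair, and the 25 highest shared genes; a part of them is given. Another 48 tested genes were named after their values were seen, as were genes cited only as listed at 0 or not tested. The other libraries of the series were not used here, and some genes of the lists are not reported here. Intervals and floors cover counting error only. Replicate number was checked as a pairing and was not used as one.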

Additional observations from a re-analysis of the deposited data

How the results depend on the processing

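No gene called between the groups was called in the opposite direction by DESeq2, RLE scaling, total counts, no filter, the filter at 20 CPM, the replicate block, the fit of 8 libraries, thinning or any fit without a library; with the PBS libraries 3 were. DESeq2 called 2786 genes, 2785 of them shared with the main test. Thinning every library to 133456 counts called 1880 genes of 3136 tested, 948 higher in Gfap-Cre and 932 in Cx3cr1-Cre, and gave 214 shared genes, 174 of them among the 396. Leaving out 1 library gave 1458 to 3817 called genes, 811 to 2344 higher in Gfap-Cre, 647 to 1473 higher in Cx3cr1-Cre, and 320 to 379 shared genes; without a Gfap-Cre library fewer genes were tested, and the lone library is assumed to vary like the other group. A log2 minimum of 1 gave 634 shared genes and one of 3 gave 241. The labels share replicate numbers only, and same-numbered deviations correlated at 0.0431 over 6179 genes; with the replicate block 3085 genes were called, 1712 and 1373 by direction, and 398 were shared. Some log2 differences reversed: leaving out 1 library moved Aldoa between -0.61 and 1.17 (the latter without Cx3cr1-Cre replicate 1) and Sept2 between -0.50 and 1.01 (the latter without Cx3cr1-Cre replicate 2), and with the PBS libraries the values were Sept2 at 0.80, Sirpa at -1.24 and Tubb3 at -0.67; the cause was not tested. Tubb3 is one of the pan-neuronal markers, which made up 0.427% of PBS replicate 3 against 0.0863% and 0.0732% of PBS replicates 1 and 2. Depth in the Cx3cr1-Cre libraries limits what can be said of low genes.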
